A study of Homo sapiens with 12 samples.

Results

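In HK-2 cells that carried hairpins against both VHL and KIM-1, 2811 of 14230 tested genes had a level that the separate effects of the single hairpins did not add up to. The quantity described here is the interaction, the log2 fold change of shVHL61-KIM1A1 over shVHL61 minus the log2 fold change of shKIM1-A1 over Luc976. It was computed for every expressed gene, 14230 of the 26506 in the deposited table, from all 12 samples, and no gene was picked by its values. A gene passed when the adjusted p-value of the interaction was below 0.05 (edgeR quasi-likelihood test, Benjamini-Hochberg over the 14230 genes). An interaction above 0 means that the cells with both hairpins stood higher than the single hairpins added on the log2 scale would place them, and one below 0 that they stood lower.

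HK-2 is a human kidney cell line, immortalised from proximal tubule epithelium, and RNA sequencing was done on 4 groups of 3 samples each. The group shVHL61-KIM1A1 carries both hairpins, shVHL61 carries the hairpin against VHL, shKIM1-A1 carries the hairpin against KIM-1 (gene HAVCR1), and Luc976, named like a hairpin against luciferase, served here as the control. No treatment is given for any group, so all 4 differ only in their hairpins as far as the labels say. Each target was addressed with a single hairpin sequence, the label of the double group is spelled KIM1A1 and that of the single group KIM1-A1, and the labels do not say whether replicate samples are separate cultures or whether the control cells carried as many hairpins as the double.

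VHL is the substrate-recognition part of a ubiquitin ligase that marks the alpha subunits of hypoxia-inducible factors (HIF) for breakdown, and its loss raises HIF target genes in many cell types. KIM-1 is a membrane receptor that injured proximal tubule cells place on their surface, where it binds dead cells and oxidised lipids for uptake. When 2 perturbations act on separate steps, their log2 effects are usually summed as the null model, and a departure in the direction of the sum is called synergy, a departure against it buffering, and a departure that turns the sign a reversal.

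Depth ranged from 16500965 to 21089716 expected counts per sample, and 16588 to 16920 genes had at least 1 count. The first principal component of log2 CPM (counts scaled to library size, per 1e+06) took 40.1% of the variance, with the 3 shVHL61-KIM1A1 samples between -45.9 and -44.6 and the other 9 between 1.31 and 27.4. The samples also differed in slopes of log2 CPM on gene length and on transcript GC content, whose causes were not tested. On gene length every shVHL61-KIM1A1 sample lay below all other samples. The slope of log2 CPM on gene length was -0.015, -0.096 and -0.130 per doubling of length in shVHL61-KIM1A1 samples, against -0.004 to 0.071 in the other 9 samples. The slope on transcript GC content split every group into a high and a low set of libraries, called sets A and B, which come from the data and not from the labels, with 2 shVHL61-KIM1A1 samples, 1 shVHL61, 1 shKIM1-A1 and 2 Luc976 samples in set A and the other 6 in set B. Of 34 proximal tubule marker genes, 19 stayed under 1 CPM in all 12 samples, and the endocytic receptor LRP2 and the organic anion transporters SLC22A6 and SLC22A8 had no count at all.

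VHL stood at 43.3, 38.2 and 43.2 CPM in shVHL61-KIM1A1 cells, 39.3, 37.2 and 37.7 in shVHL61 cells, 60, 61.02 and 57.4 in shKIM1-A1 cells, and 52.8, 53.4 and 53.5 in Luc976 cells. The groups with shVHL61 lay below the groups without it and did not overlap them, and the interaction of VHL was -0.03 (SE 0.09, adjusted p = 0.844). HAVCR1 had 99, 80.8 and 71.3 CPM in shVHL61-KIM1A1 cells, 132, 152 and 146 in shVHL61 cells, 60.6, 52.01 and 58.4 in shKIM1-A1 cells, and 113, 133 and 116 in Luc976 cells. Both groups with the KIM-1 hairpin lay below both groups without it, but the double knockdown stood above shKIM1-A1 in all samples. The KIM-1 hairpin lowered HAVCR1 to 0.584 of its partner level with shVHL61 and to 0.472 without it, with an interaction of 0.31 (SE 0.14, adjusted p = 0.152). That interaction missed the threshold in the main fit and whichever single sample was left out. It passed only in some alternatives with the library set or GC content, which were chosen after seeing the data. With the library set as a term it was 0.459 (edgeR, adjusted p = 4.25e-05). With length and GC trends removed together it was 0.178 and did not pass (edgeR, adjusted p = 0.301). OSM, which encodes the cytokine oncostatin M, had 716 counts in the 3 shVHL61-KIM1A1 samples, 507 in shVHL61, 3 in shKIM1-A1 and 2 in Luc976, so the effect of the KIM-1 hairpin without shVHL61 rests on 5 counts and no interaction is given for OSM.

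The interaction passed for 19.8% of the 14230 genes. It lay above 0 for 1457 of them (10.2% of the genes tested) and below 0 for 1354 (9.52%), and 532 genes (3.74%) departed from additivity by at least 2-fold. The median interaction of all genes was 0.0037 and the median size was 0.216. For 6519 genes, 45.8% of those tested, the 95% interval of the interaction lay within 0.5 of 0 on the log2 scale, so that larger departures lay outside it. By the direction of the passing genes, 51.8% lay above 0, but limma on log2(TPM + 1) of the deposited TPM values gave 24.5% of 3090 above 0, with a median of all genes of -0.130. Directions of small interactions are therefore given relative to a zero that moves by that amount with the scale. The 3 genes just inside the threshold were TMEM74B (interaction 0.76), DIP2A (-0.34) and FBXL4 (-0.35), with adjusted p-values of 0.04994, 0.04997 and 0.04998. The 3 just outside were AP1S1 (0.26), XPO4 (-0.35) and ATP6V1A (-0.32), with adjusted p-values of 0.05008, 0.05022 and 0.05024.

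The interaction can be read as the difference between the effect of the KIM-1 hairpin in cells with shVHL61 and in cells without it, and these effects share no sample. The KIM-1 hairpin changed 42.6% of all genes in cells with shVHL61 (shVHL61-KIM1A1 against shVHL61) and 31.4% in cells without it (shKIM1-A1 against Luc976). Over all 14230 genes its effects with and without shVHL61 had a Pearson r of 0.313 and a Spearman rho of 0.408, as a description across genes, which are not independent replicates. Of the 2811 passing genes, the KIM-1 hairpin passed with opposite signs in the 2 backgrounds for 338. It passed in both with the same sign and was stronger with shVHL61 for 258. It was weaker with shVHL61, or no longer passed there, for 769. It passed only with shVHL61 for 1355, and 91 could not be placed. The stronger and weaker classes both require the effect without shVHL61 to pass, and that effect enters the interaction with a minus sign. Error in it therefore favours weaker over stronger, and the ratio of these counts is not a result.

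**Figure D1:**
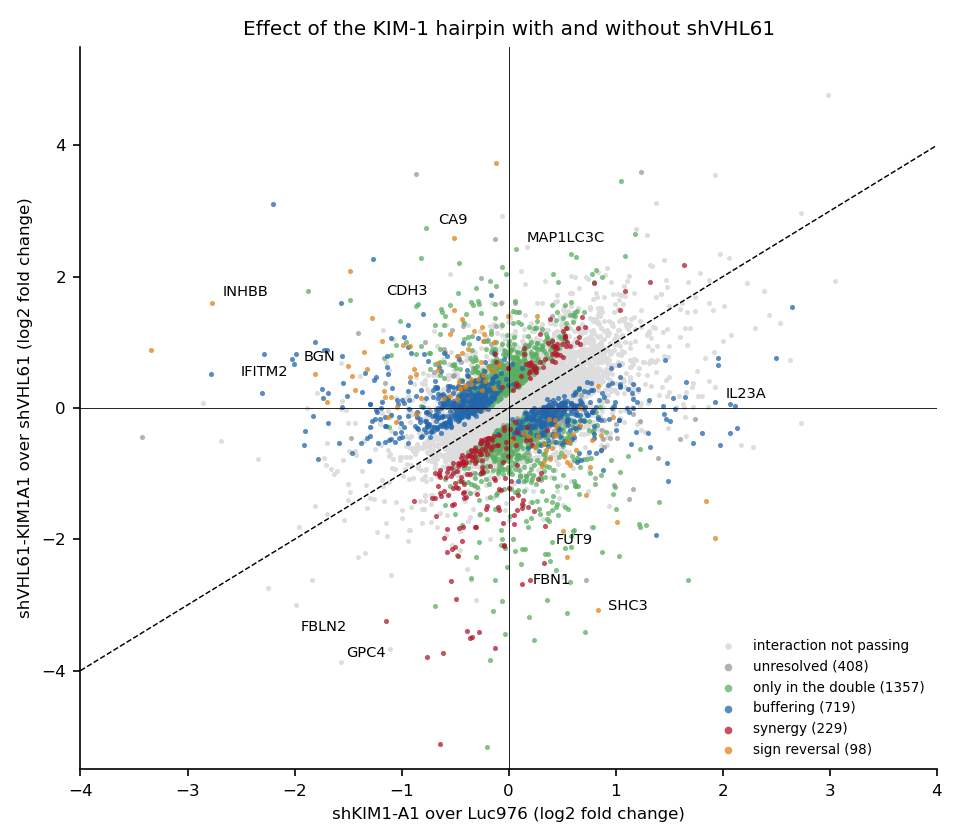
Effect of the KIM-1 hairpin on each tested gene in cells with shVHL61 (vertical axis, log2 fold change of shVHL61-KIM1A1 over shVHL61) and in cells without it (horizontal axis, shKIM1-A1 over Luc976). Genes on the dashed line are additive. Coloured points pass the interaction and are coloured by class, with the count of each in brackets, and 12 points lie outside the axes. INHBB, CA9 and BGN sit in the upper left quadrant and SHC3 in the lower right, where the hairpin acted in opposite directions.

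The passing genes were also sorted by how the double knockdown stood against the sum of the single hairpins, both measured from Luc976. The sum of the singles passed for 19.8% of all genes and the double knockdown against Luc976 for 51.4%. Synergy, where the sum and the double both passed in the direction of the interaction, held 229 genes, 66 of them up and 163 down. Buffering, where the sum passed and the double fell short of it, held 719 genes, with an interaction above 0 in 414 and below 0 in 305. Sign reversal, where the sum and the double both passed with opposite signs, held 98 genes, 61 with an interaction above 0 and 37 below. In 1357 genes the double passed and the sum did not, 694 above and 663 below, and in 888 of these neither single hairpin passed either. The remaining 408 stayed unresolved. The Luc976, shVHL61 and shKIM1-A1 samples all enter the sum and the interaction with opposite signs, and a gene enters these classes through a passing sum. Error in these samples alone therefore favours buffering over synergy, and the ratio of their counts is not a result.

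Of 786 genes that both single hairpins changed in the same direction, the interaction ran against that direction in 335 and along it in 54. The same shared error of the Luc976, shVHL61 and shKIM1-A1 samples favours the former, so that ratio is not a result either. The single hairpins moved 285 genes in opposite directions, and 121 of these passed the interaction. In 16 genes both single hairpins passed with the same sign and the double passed with the other, and these are described with sign reversal.

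Sign reversal was led by INHBB, which encodes the beta B subunit of activin B and inhibin B. INHBB had 36.2, 39.3 and 39.9 CPM in shVHL61-KIM1A1 cells, 12.97, 11.9 and 13.1 in shVHL61 cells, 0.789, 1.16 and 0.344 in shKIM1-A1 cells, and 5.42, 4.51 and 5.71 in Luc976 cells. The double knockdown was the highest group and shKIM1-A1 the lowest, with no overlap between any of the 4 groups. The KIM-1 hairpin alone changed INHBB by -2.77 on the log2 scale, the VHL hairpin alone by 1.28, and together they changed it by 2.89, where the sum of the singles was -1.49. The interaction was 4.38 (SE 0.25, adjusted p = 1.43e-08), which is a 20.8-fold departure from additivity. CA9, which encodes carbonic anhydrase IX, a membrane enzyme that hydrates carbon dioxide and a widely used HIF target, had 12.7, 12.2 and 12.5 CPM in shVHL61-KIM1A1 cells, 2.04, 2.46 and 1.71 in shVHL61 cells, 3.42, 4.74 and 4.62 in shKIM1-A1 cells, and 6.1, 5.77 and 6.36 in Luc976 cells. Both single hairpins lay below Luc976 and the double above it, without overlap. The VHL hairpin alone lowered CA9 by 1.55 on the log2 scale, the double raised it by 1.04, and the interaction was 3.10 (SE 0.20, adjusted p = 4.36e-08).

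BGN, which encodes the small matrix proteoglycan biglycan, had 28.5, 29.2 and 32.4 CPM in shVHL61-KIM1A1 cells, 22.2, 20.2 and 20.7 in shVHL61 cells, 3.26, 4.69 and 4.57 in shKIM1-A1 cells, and 14.9, 14.5 and 14.7 in Luc976 cells. Only the shKIM1-A1 samples lay below Luc976, and the double was the highest group, with an interaction of 2.33 (SE 0.15, adjusted p = 4.24e-08). CFB, complement factor B of the alternative pathway, had 15.6, 18.5 and 18.04 CPM in shVHL61-KIM1A1 cells, 8.11, 8.97 and 8.53 in shVHL61 cells, 4.32, 3.27 and 3.44 in shKIM1-A1 cells, and 7.31, 8.46 and 9.27 in Luc976 cells. The shVHL61 and Luc976 samples overlapped, shKIM1-A1 lay below them and the double above, with an interaction of 2.20 (SE 0.17, adjusted p = 3.74e-07). Other genes that reversed upward were MMP7 (matrilysin, interaction 1.79), BMP4 (a bone morphogenetic protein, 1.71), CDH1 (E-cadherin, 1.503), LCN2 (the injury marker NGAL, 1.48) and CLDN4 (a tight junction claudin, 1.28).

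Reversal in the other direction was led by SHC3, which encodes a Shc family signalling adaptor. SHC3 had 0.517, 0.554 and 0.584 CPM in shVHL61-KIM1A1 cells, 4.13, 5.46 and 4.499 in shVHL61 cells, 7.79, 8.91 and 7.57 in shKIM1-A1 cells, and 5.101, 4.81 and 3.63 in Luc976 cells. The double was the lowest group by far, and the shVHL61 and Luc976 samples overlapped. The KIM-1 hairpin changed SHC3 by -3.07 on the log2 scale with shVHL61 and by 0.83 without it, an interaction of -3.91 (SE 0.27, adjusted p = 9.45e-08). MMP9, the secreted gelatinase B, had 7.002, 8.24 and 8.595 CPM in shVHL61-KIM1A1 cells, 22.4, 18.7 and 18.6 in shVHL61 cells, 15.3, 21.2 and 18.1 in shKIM1-A1 cells, and 10.8, 10.8 and 11.6 in Luc976 cells. Each single hairpin stood above Luc976 in all samples, and the double stood below it in all samples, so that the sum of the singles of 1.57 met a double of -0.48, with an interaction of -2.04 (SE 0.17, adjusted p = 7.58e-07). RAB36, a small GTPase of the Rab family, and ENTPD7, an intracellular nucleotidase, rose with the KIM-1 hairpin alone by 0.57 and 0.55 and fell in the double by 0.69 and 0.67 on the log2 scale, with interactions of -1.44 and -1.38.

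The 16 genes in which both single hairpins agreed and the double went the other way reversed in the strict sense, and those described here were chosen after their values were seen. BDKRB2, the bradykinin B2 receptor, had 4.82, 4.98 and 4.99 CPM in shVHL61-KIM1A1 cells, 1.41, 1.05 and 0.982 in shVHL61 cells, 1.11, 0.7905 and 1.18 in shKIM1-A1 cells, and 2.79, 2.84 and 3.03 in Luc976 cells. Both single groups lay below Luc976 and the double above it, without overlap, and the interaction was 3.57 (SE 0.27, adjusted p = 1.84e-07). CA9 and CLDN4 belong here, with ADGRG2 (an adhesion G protein-coupled receptor, interaction 2.00), CPA4 (a carboxypeptidase, 1.25), TLE4 (a corepressor, 0.97), SUMF2 (0.75), ABHD12 (0.73) and RPN2 (a subunit of the oligosaccharyltransferase, 0.43). In the other direction PALD1, a phosphatase domain protein, had 0.976, 0.7999 and 0.531 CPM in shVHL61-KIM1A1 cells, 3.69, 3.51 and 3.88 in shVHL61 cells, 4.05, 3.74 and 3.24 in shKIM1-A1 cells, and 2.68, 2.33 and 2.56 in Luc976 cells. Both single groups lay above Luc976 and the double far below it, with an interaction of -2.81 (SE 0.27, adjusted p = 2.85e-06). HLF, a PAR family transcription factor, ALDH1A3, which makes retinoic acid, and SPNS2, a sphingosine 1-phosphate exporter, followed MMP9 with interactions of -1.25, -0.998 and -1.15.

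Synergy ran downward in 163 of its 229 genes. FBN1 encodes fibrillin 1, the core of matrix microfibrils, and had 2.87, 4.12 and 2.65 CPM in shVHL61-KIM1A1 cells, 19.9, 20.2 and 21.5 in shVHL61 cells, 61.3, 53.9 and 55.3 in shKIM1-A1 cells, and 53.8, 53.2 and 49.5 in Luc976 cells. The shKIM1-A1 samples lay above the Luc976 samples, although that difference did not pass, shVHL61 stood below both and the double was far lower than all. The interaction of FBN1 was -2.80 (SE 0.15, adjusted p = 8.64e-09), since the double fell by 4.03 on the log2 scale where the sum of the singles was -1.23. GPC4, the heparan sulphate proteoglycan glypican 4, had 0.115, 0.246 and 0.318 CPM in shVHL61-KIM1A1 cells, 3.35, 2.96 and 3.46 in shVHL61 cells, 6.63, 6.59 and 6.29 in shKIM1-A1 cells, and 10.6, 10.9 and 11.6 in Luc976 cells. All 4 groups were separate, and the 3 double samples together held 12 counts, against 195 in shVHL61, 379 in shKIM1-A1 and 613 in Luc976. The interaction of GPC4 was -3.03 (SE 0.29, adjusted p = 2.76e-06).

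FBLN2 encodes fibulin 2, which binds fibrillin and basement membrane proteins, and had 0.746, 1.29 and 1.11 CPM in shVHL61-KIM1A1 cells, 10.7, 10.6 and 8.58 in shVHL61 cells, 11.4, 13.6 and 10.9 in shKIM1-A1 cells, and 28.5, 25.1 and 25.7 in Luc976 cells. The single hairpins lowered it by 1.40 and 1.14 on the log2 scale and the double by 4.65, with an interaction of -2.10 (SE 0.23, adjusted p = 9.41e-06). ABCB1, the drug efflux pump P-glycoprotein, had 1.61, 0.984 and 1.06 CPM in shVHL61-KIM1A1 cells, 7.09, 7.92 and 7.76 in shVHL61 cells, 11.5, 10.7 and 11.3 in shKIM1-A1 cells, and 15.6, 16.5 and 16.4 in Luc976 cells, again with 4 separate groups and an interaction of -2.10 (SE 0.18, adjusted p = 1.24e-06). FBN2, fibrillin 2, and COL5A1, a chain of collagen V, followed with interactions of -1.28 and -1.27. DCN, which encodes decorin, a small proteoglycan related to biglycan, held 5 counts in the 3 double samples, against 211 in shVHL61, 248 in shKIM1-A1 and 368 in Luc976, so that its interaction of -4.48 (95% interval -5.26 to -3.70) is poorly bounded in size. SOX9, a transcription factor of tubule repair, had 4.19, 4.12 and 5.04 CPM in shVHL61-KIM1A1 cells, 11.6, 9.83 and 9.72 in shVHL61 cells, 24.1, 26.6 and 26.1 in shKIM1-A1 cells, and 28.9, 25.2 and 22.2 in Luc976 cells. The KIM-1 hairpin changed SOX9 by 0.01 on the log2 scale without shVHL61, which did not pass, and lowered it by 1.21 with shVHL61, with an interaction of -1.22.

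Upward synergy was smaller in size. NDRG1, a hypoxia- and stress-responsive gene, had 173, 180.2 and 184 CPM in shVHL61-KIM1A1 cells, 68.4, 70.99 and 69.3 in shVHL61 cells, 93.1, 101 and 88.98 in shKIM1-A1 cells, and 67.3, 72.2 and 76.2 in Luc976 cells. The shVHL61 and Luc976 samples overlapped, shKIM1-A1 stood above them and the double stood highest, with an interaction of 0.97 (SE 0.09, adjusted p = 1.73e-06). FER1L4, a transcribed ferlin pseudogene, had an interaction of 1.11, and CD24, a glycosylated surface protein of progenitor and injured tubule cells, had 0.70. FER1L4 and MT1L, from the metallothionein cluster and with an interaction of 0.95, are pseudogenes of gene families, and reads may have been shared with their relatives. DHRS9, a short-chain dehydrogenase, had 0.83, and MT1L and DHRS9 both lost their calls in some settings.

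Buffering was led by IFITM2, an interferon-induced membrane protein that restricts virus entry. IFITM2 had 5.68, 5.85 and 5.996 CPM in shVHL61-KIM1A1 cells, 5.49, 4.21 and 5.17 in shVHL61 cells, 1.05, 1.21 and 1.18 in shKIM1-A1 cells, and 6.42, 4.76 and 6.004 in Luc976 cells. Only shKIM1-A1 was low, and the Luc976 samples overlapped both the double and shVHL61, with an interaction of 2.54 (SE 0.23, adjusted p = 1.43e-06). Its neighbours in the family, IFITM1 and IFITM3, reversed in sign, with a fall in shKIM1-A1 as well and interactions of 1.95 and 1.43. Their sequences are alike, so that the split of reads among the 3 is uncertain. THBS2, the matricellular protein thrombospondin 2, had 73.1, 69.7 and 63.9 CPM in shVHL61-KIM1A1 cells, 78.2, 70.9 and 74.6 in shVHL61 cells, 55.2, 61.2 and 53.6 in shKIM1-A1 cells, and 214, 190.4 and 199 in Luc976 cells. The double overlapped shVHL61, shKIM1-A1 was lowest and all 3 hairpin groups lay far below Luc976, so that the sum of the singles was -3.26 and the double -1.55 (interaction 1.71). CDKN1C, the cyclin-dependent kinase inhibitor p57, fell by 1.82 with the VHL hairpin, by 1.24 with the KIM-1 hairpin and by 1.35 with both, on the log2 scale, an interaction of 1.71.

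Buffering below 0 concerned genes whose single effects summed to a rise. IL23A, the p19 subunit of interleukin 23, had 7.002, 6.77 and 8.22 CPM in shVHL61-KIM1A1 cells, 6.99, 6.87 and 6.72 in shVHL61 cells, 15.8, 21.5 and 18.4 in shKIM1-A1 cells, and 5.42, 4.71 and 4.46 in Luc976 cells. The double overlapped shVHL61 and lay far below shKIM1-A1, and the interaction was -1.83 (SE 0.18, adjusted p = 4.13e-06). TMX3, a thioredoxin-related protein of the endoplasmic reticulum, had 50.2, 36.9 and 36.1 CPM in shVHL61-KIM1A1 cells, 38.8, 45.8 and 45.97 in shVHL61 cells, 44.1, 30.2 and 43.6 in shKIM1-A1 cells, and 14.4, 14.1 and 14.7 in Luc976 cells. All 3 hairpin groups overlapped and lay above Luc976, so that the sum of 3.04 met a double of 1.51 (interaction -1.53). CDKN1A, the cell cycle inhibitor p21, rose in the double by 2.20 on the log2 scale where the singles summed to 3.40, with an interaction of -1.20. PLAU (urokinase) and IL6 had interactions of -0.90 and -0.80 and were likewise higher than Luc976 in all 3 hairpin groups. TRPV3, a cation channel, and UCA1, a long noncoding RNA, rose with the KIM-1 hairpin alone by 1.45 and 1.19 and had interactions of -1.42 and -1.56. Above 0, RTEL1-TNFRSF6B, a read-through transcript that overlaps its parent genes and is uncertain for that reason, the imprinted RNA H19 and the membrane protein gene TMEM59L had interactions of 1.91, 1.76 and 1.75.

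The largest class held genes whose singles did not sum to a passing change. CDH3 encodes P-cadherin and had 114, 115 and 123 CPM in shVHL61-KIM1A1 cells, 39.8, 40.5 and 38.3 in shVHL61 cells, 17.4, 19.6 and 18.7 in shKIM1-A1 cells, and 25.6, 27.5 and 28.1 in Luc976 cells. The VHL hairpin alone raised CDH3 by 0.55 and the KIM-1 hairpin alone lowered it by 0.54 on the log2 scale, which cancel in the sum, while the double was 2.12 above Luc976. The interaction of CDH3 was 2.12 (SE 0.10, adjusted p = 1.04e-09). MAP1LC3C, an LC3 family member of the autophagosome, had 12.6, 10.5 and 13.1 CPM in shVHL61-KIM1A1 cells, 1.89, 2.56 and 2.28 in shVHL61 cells, 1.26, 1.26 and 1.38 in shKIM1-A1 cells, and 1.68, 0.7596 and 1.31 in Luc976 cells, with the double apart from all others and an interaction of 2.36 (SE 0.32, adjusted p = 9.33e-05). CDA (cytidine deaminase) and PTGIS (prostacyclin synthase) had interactions of 2.43 and 1.86.

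Downward, FUT9, a fucosyltransferase that makes Lewis X, had 0.976, 0.984 and 0.743 CPM in shVHL61-KIM1A1 cells, 4.13, 3.91 and 4.602 in shVHL61 cells, 10.2, 6.903 and 10.3 in shKIM1-A1 cells, and 7.36, 7.697 and 6.599 in Luc976 cells. The double lay below all other samples and the interaction was -2.56 (SE 0.27, adjusted p = 7.48e-06). KIF26B (an unconventional kinesin family protein, interaction -2.30), MCOLN3 (a cation channel of endosomes and lysosomes, -2.29) and EPHB1 (an ephrin receptor, -2.04) showed the same order, with the double lowest and shKIM1-A1 at or above Luc976. ANGPTL4, a secreted inhibitor of lipoprotein lipase, had 3.96, 5.41 and 5.52 CPM in shVHL61-KIM1A1 cells, 14.1, 14.3 and 14.9 in shVHL61 cells, 14.2, 18.02 and 12.9 in shKIM1-A1 cells, and 18.1, 14.3 and 16.8 in Luc976 cells. Neither single hairpin passed for ANGPTL4, and the double stood -1.72 from Luc976 on the log2 scale.

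**Figure D2:**
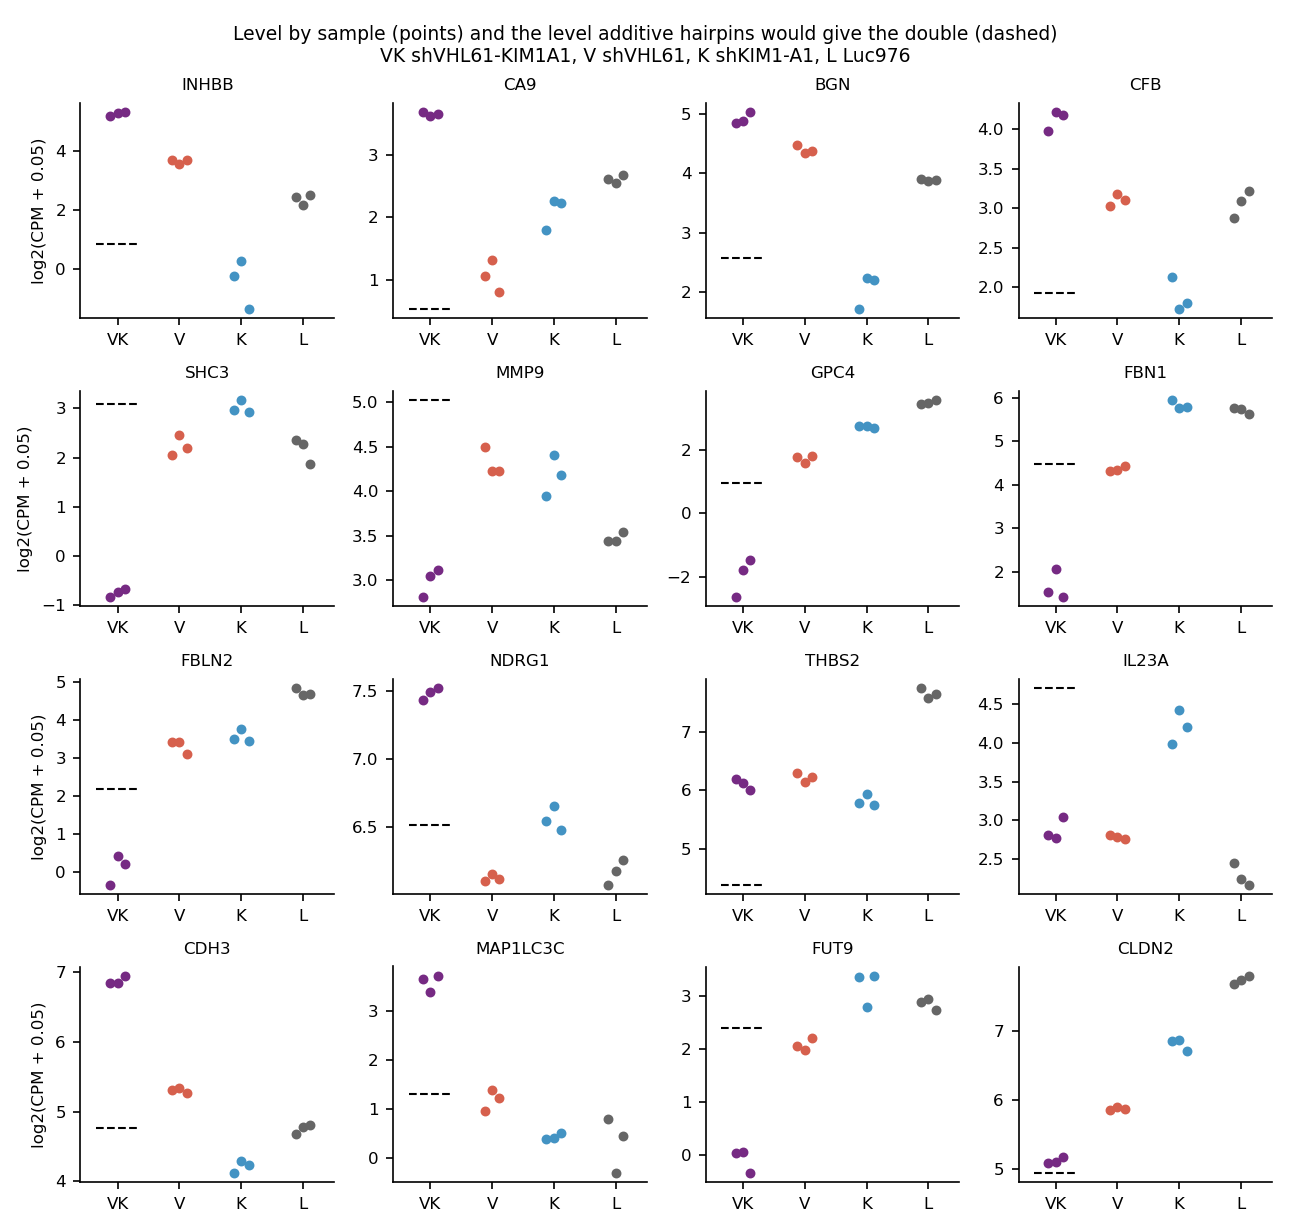
Level of 16 genes in each sample, as log2(CPM + 0.05), in shVHL61-KIM1A1 (VK), shVHL61 (V), shKIM1-A1 (K) and Luc976 (L) cells, with 1 point per sample. The dashed line marks where the single hairpins would place the double if their log2 effects added. The double lies above the line for INHBB and CA9, below it for SHC3 and FBN1, and close to it for CLDN2.

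Additive genes were named by the largest sums among genes whose 95% interval lay within 0.5 of 0. CXCL8, the chemokine interleukin 8, had 178, 171 and 169 CPM in shVHL61-KIM1A1 cells, 89.9, 109 and 107 in shVHL61 cells, 96.5, 90.3 and 104 in shKIM1-A1 cells, and 50.01, 58.6 and 51.96 in Luc976 cells. Both single hairpins stood above Luc976 and the double above both, with an interaction of -0.09 (SE 0.11, adjusted p = 0.609). CLDN2, the paracellular cation channel claudin 2 of the proximal tubule, had 33.9, 34.3 and 36.1 CPM in shVHL61-KIM1A1 cells, 57.5, 59.6 and 58.4 in shVHL61 cells, 115, 117 and 105 in shKIM1-A1 cells, and 205, 212 and 221 in Luc976 cells. The 4 groups did not overlap and the double was lowest, with an interaction of 0.17 (SE 0.08, adjusted p = 0.163). RRAD, a Ras-related GTPase, and TRO, the adhesion protein trophinin, upward and the TGF-beta co-receptors ENG and TGFBR3 downward had interactions of 0.04, -0.04, -0.01 and -0.02.

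Genes were then read by 24 lists of pathways and markers that hold 506 tested symbols, of which 213 passed. Members named beyond the 4 smallest p-values of a list were chosen after their values were seen. Counts are to be read beside the 10.2% of all genes that passed above 0 and the 9.52% below. No list was tested as a set. The lists were chosen with earlier results of these data known, and some members because of them. A share above that of all genes may therefore partly reflect that choice. Of HIF targets, 20 of 38 passed above 0 and 3 below, with a median interaction of 0.35 beside 0.0037 over all genes. The VHL hairpin alone left the list at a median log2 change of -0.04 against Luc976, the KIM-1 hairpin alone at 0.23, and the double at 0.51, where the sum of the singles had a median of 0.19. The list's median effective length was 3320 bases, against 2837 over all genes. With the trend on gene length removed 23 of its members passed above 0 and 3 below, with a median of 0.36, and on the TPM scale 13 and 4, with a median of 0.14.

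ADM, the vasodilator peptide adrenomedullin, had 59.9, 67.4 and 69.5 CPM in shVHL61-KIM1A1 cells, 28.4, 27.3 and 23.7 in shVHL61 cells, 26.3, 30.3 and 26.99 in shKIM1-A1 cells, and 28.1, 24.8 and 25.98 in Luc976 cells. Only the double stood apart, and the interaction was 1.22 (SE 0.12, adjusted p = 4.86e-06). EGLN3, a HIF prolyl hydroxylase that is itself a HIF target, had 35.6, 35.99 and 38.4 CPM in shVHL61-KIM1A1 cells, 19.5, 20.4 and 19.4 in shVHL61 cells, 15.5, 14.2 and 16.1 in shKIM1-A1 cells, and 20.04, 19.3 and 20.3 in Luc976 cells. The shVHL61 and Luc976 samples overlapped, shKIM1-A1 was lower and the double higher, with an interaction of 1.27 (SE 0.10, adjusted p = 5.93e-07). PPFIA4, BHLHE40, PFKFB4 and the mitophagy receptor BNIP3 had interactions of 1.13, 0.69, 0.67 and 0.67. Against that direction ran ANGPTL4 (-1.41), the carbonic anhydrase CA12 (-0.50) and CCND1 (-0.48). The glucose transporter SLC2A1 and the growth factor VEGFA did not pass, at 0.19 (SE 0.09, adjusted p = 0.155) and -0.13 (SE 0.08, adjusted p = 0.255).

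The core of the hypoxia response element, ACGTG or GCGTG on either strand, was searched in RefSeq promoters from 250 bases before to 50 after the gene start. The bases before the start are shown for 3 HIF targets of different classes (CA9 sign reversal, ADM passing only in the double, BNIP3 synergy), 5′ to 3′ along the gene, in GRCh38.p14, with the core in capitals. They are chr9:35673678-35673927 on the plus strand for CA9, chr11:10304823-10305072 on the plus strand for ADM and chr10:131981924-131982173 on the minus strand for BNIP3.
CA9: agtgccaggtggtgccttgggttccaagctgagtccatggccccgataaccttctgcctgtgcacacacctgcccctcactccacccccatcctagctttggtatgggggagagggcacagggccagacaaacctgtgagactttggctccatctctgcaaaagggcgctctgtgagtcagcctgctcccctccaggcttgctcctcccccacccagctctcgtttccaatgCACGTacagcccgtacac
ADM: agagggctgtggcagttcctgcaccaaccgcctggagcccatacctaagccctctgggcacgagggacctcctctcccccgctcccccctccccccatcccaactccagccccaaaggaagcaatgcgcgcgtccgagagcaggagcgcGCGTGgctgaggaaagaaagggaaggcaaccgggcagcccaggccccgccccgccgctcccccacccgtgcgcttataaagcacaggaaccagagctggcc
BNIP3: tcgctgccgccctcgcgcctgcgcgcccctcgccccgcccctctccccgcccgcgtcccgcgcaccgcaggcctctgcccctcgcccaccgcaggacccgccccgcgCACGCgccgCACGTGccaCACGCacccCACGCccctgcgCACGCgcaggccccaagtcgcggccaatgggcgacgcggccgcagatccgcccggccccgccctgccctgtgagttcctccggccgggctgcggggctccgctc
The core began 18 bases before the start in CA9 and 101 before it in ADM, and BNIP3 held 5 stretches with it. A promoter was found for 30 of the 38 tested HIF targets. The core occurred in 13 of 17 that passed above 0 and in 12 of 13 others, some of which passed below 0 (among them CA12 and ANGPTL4), against 48.4% of 35116 promoters of all genes. A match is a description of letters and shows no binding.

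**Figure D3:**
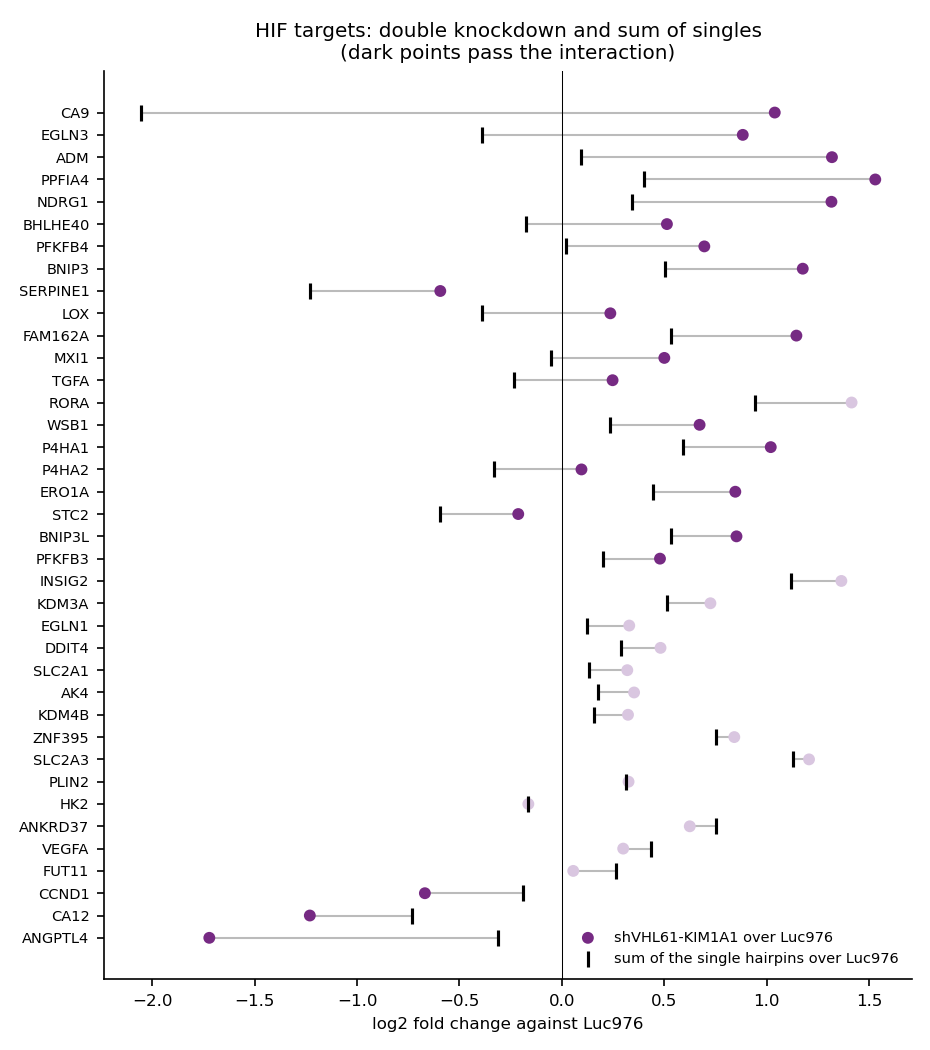
The 38 tested HIF targets, ordered by interaction, with the log2 fold change of shVHL61-KIM1A1 over Luc976 (points, dark where the interaction passes) and the sum of the single hairpins over Luc976 (black ticks). The length of each line is the interaction. Points lie right of their ticks for 20 passing genes, farthest for CA9, and left of them for CCND1, CA12 and ANGPTL4.

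Of glycolysis and glycogen genes, 12 of 26 passed above 0 and none below, with a median interaction of 0.30. PGK1, which makes ATP in glycolysis, had 1677, 1750.0 and 1750.4 CPM in shVHL61-KIM1A1 cells, 1032, 1053 and 1055 in shVHL61 cells, 1083, 1135 and 1096 in shKIM1-A1 cells, and 969, 1062 and 1063 in Luc976 cells. The double lay above all other samples, of which shKIM1-A1 was the highest, and the interaction was 0.62 (SE 0.07, adjusted p = 1.10e-05). ENO2 (enolase 2), PGM1 (phosphoglucomutase), PYGL (liver glycogen phosphorylase) and LDHA (lactate dehydrogenase A) had interactions of 0.68, 0.55, 0.36 and 0.39. With the length trend removed 13 passed above 0 and none below, with a median of 0.28. The TPM scale gave 8 above 0 and 1 below, with a median of 0.19. Of HIF pathway regulators, 4 of 16 passed above 0 and 1 below, with a median of 0.19. On the TPM scale 3 passed above 0 and 2 below, with a median of 0.02. The 5 were EGLN3, the VHL ligase subunit RBX1 (0.45), the HIF competitor CITED2 (0.43), EPAS1 (HIF-2 alpha, 0.29) and, below 0, the coactivator CREBBP (-0.42). The calls of RBX1 and CREBBP were lost with the length trend removed. HIF1A did not pass, at 0.30 (SE 0.12, adjusted p = 0.0837).

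Genes of the unfolded protein and amino acid stress responses passed above 0 in 15 of 30 and below in 2, with a median of 0.33. ATF3, a stress-induced transcription factor, had 7.06, 8.06 and 6.898 CPM in shVHL61-KIM1A1 cells, 3.06, 3.46 and 3.57 in shVHL61 cells, 4.79, 4.69 and 5.16 in shKIM1-A1 cells, and 5.15, 6.13 and 5.94 in Luc976 cells. The shVHL61 samples were lowest and the double highest, with an interaction of 1.36 (SE 0.17, adjusted p = 5.48e-05). ASNS (asparagine synthetase), the chaperone HSPA5 and the disulphide isomerase PDIA6 had interactions of 0.54, 0.34 and 0.33. The list's genes were shorter than average (median 2085 bases), and with the length trend removed 12 passed above 0 and 2 below, with a median of 0.20. The TPM scale gave 8 above 0 and 3 below, with a median of 0.17. The median of genes of oxidative phosphorylation was 0.22, with 14 of 34 above 0 and none below, among them SDHB (0.46), SDHD (0.43), ATP5O (0.49) and ATP5A1 (0.29). Their median length was 1045 bases, and with the length trend removed 5 passed above 0, with a median of 0.07, so most of these calls depended on that setting. The TPM scale gave 4 above 0 and none below, with a median of 0.06. Cholesterol and fatty acid synthesis passed above 0 in 10 of 31 and below in 2, with a median of 0.13 that turned to -0.04 on the TPM scale. ACSS2 (acetyl-CoA synthesis, 0.73), FDFT1 (squalene synthase, 0.56) and INSIG1 (the sterol sensor, 0.50) were among those above 0.

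**Figure D4:**
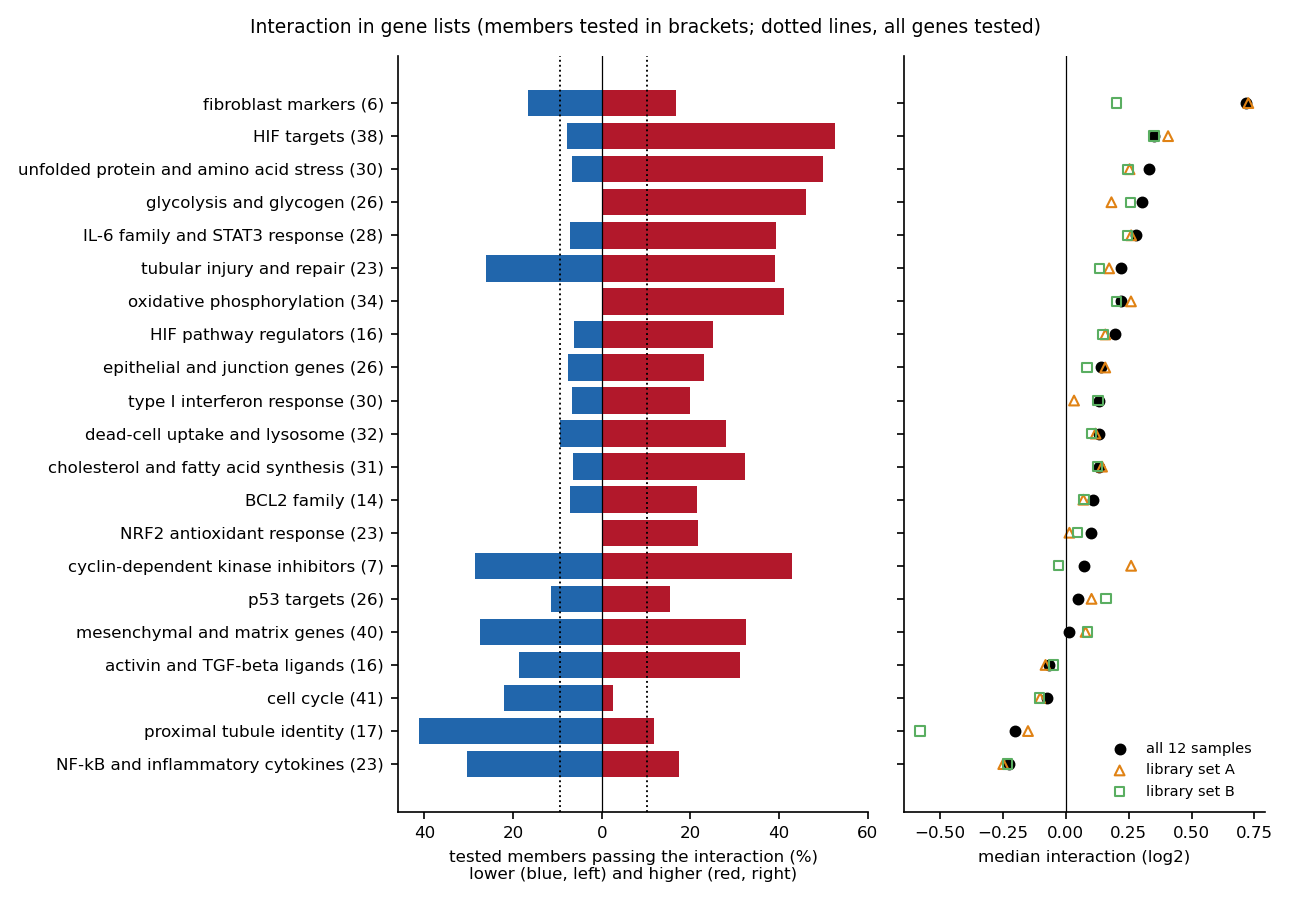
Share of tested list members that pass the interaction below 0 (left, blue) and above 0 (right, red), with dotted lines at the shares of all genes, 9.52% and 10.2%, and beside it the median interaction of each list in all 12 samples and within library sets A and B. Lists with under 5 tested members are left out, and some list members were chosen because of earlier results of these data. The red bars of all lists shown except cell cycle reach past the dotted line, HIF targets, glycolysis and stress response genes among them. Medians lie below 0 for NF-kB cytokines, proximal tubule genes, cell cycle genes and activin and TGF-beta ligands.

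Of NF-kB and inflammatory cytokine genes 4 of 23 passed above 0 and 7 below, with a median of -0.23. IL23A, LTB (-1.10), TRAF1 (-0.93), CSF2 (-0.93), IL6, CXCL5 (-0.71) and NFKB1 (-0.52) lay below 0. The 4 above 0 were SOD2, IL32 (0.31) and the chemokines CCL20 and CCL2, whose levels stayed under 2 CPM and whose interactions of 1.70 and 2.98 rest on few counts. SOD2, the mitochondrial superoxide dismutase, had 75.4, 77.03 and 74.4 CPM in shVHL61-KIM1A1 cells, 81.9, 83.5 and 83.1 in shVHL61 cells, 31.3, 30.9 and 30.7 in shKIM1-A1 cells, and 64.7, 66.5 and 71.9 in Luc976 cells. The shKIM1-A1 samples were lowest by far and the double lay between shVHL61 and Luc976, with an interaction of 0.997 (SE 0.08, adjusted p = 6.18e-07). The IL-6 family and STAT3 response list passed above 0 in 11 of 28 and below in 2, with a median of 0.28. The complement proteases C1R and C1S had interactions of 1.20 and 1.20, and CEBPD, SOCS3 and PIM1 had 0.93, 0.68 and 0.81, while the pentraxin PTX3 had -1.35. Of type I interferon response genes 6 of 30 passed above 0 and 2 below, with a median of 0.13 (-0.02 on the TPM scale), led by the IFITM genes and IFI44L (0.78).

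Cell cycle genes passed below 0 in 9 of 41 and above in 1, with a median of -0.08. The TPM scale gave 14 below 0 and 1 above, with a median of -0.23. MKI67, the proliferation marker Ki-67, had 620.1, 585 and 547 CPM in shVHL61-KIM1A1 cells, 824, 854 and 883 in shVHL61 cells, 903, 845 and 879.7 in shKIM1-A1 cells, and 809, 858 and 824 in Luc976 cells. The double lay below all other samples, which overlapped, and the interaction was -0.62 (SE 0.08, adjusted p = 3.34e-05). RRM2 (ribonucleotide reductase), CCND1 (cyclin D1) and CDC25A (a cell cycle phosphatase) had interactions of -0.61, -0.48 and -0.39. Cyclin-dependent kinase inhibitors passed above 0 in 3 of 7 (CDKN1C, CDKN2A at 0.59 and CDKN2B at 0.52) and below in 2 (CDKN1A and CDKN2C at -1.01), and their median of 0.07 was 0.26 within set A, -0.03 within set B and -0.09 on the TPM scale. Of p53 targets 4 of 26 passed above 0 and 3 below, with a median of 0.05 (-0.08 on the TPM scale). BTG2 (0.57), PHLDA3 (0.45) and DDB2 (0.37) were above 0 and GDF15 (-0.60) and SESN2 (-0.44) below. In the BCL2 family 3 of 14 passed above 0 and 1 below, with a median of 0.11 (-0.03 on the TPM scale), namely BBC3 (0.61), BID (0.37), BCL2L11 (0.36) and MCL1 (-0.32), and BBC3 and BCL2L11 lost their calls in several settings.

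Mesenchymal and matrix genes departed in both directions, 13 of 40 above 0 and 11 below, with a median of 0.01 (-0.10 on the TPM scale). Fibrillins, FBLN2, GPC4, DCN, COL5A1 and FN1 (fibronectin, -0.64) lay below 0. BGN, THBS2, COL11A1 (1.35), COL1A1 (0.98), EFEMP1 (fibulin 3, 0.99) and TGFBI (0.97) lay above 0. Among activin and TGF-beta ligands and their binding proteins 5 of 16 passed above 0 and 3 below, with a median of -0.07 that was 0.01 with the length trend removed. INHBA, the activin beta A subunit, had 3.73, 4.31 and 4.404 CPM in shVHL61-KIM1A1 cells, 2.67, 2.81 and 3.21 in shVHL61 cells, 2.26, 2.74 and 2.31 in shKIM1-A1 cells, and 4.79, 4.81 and 6.48 in Luc976 cells. The 3 hairpin groups lay below Luc976, the double nearest to it, and the interaction was 1.65 (SE 0.23, adjusted p = 1.09e-04). LTBP1 and LTBP2, which hold latent TGF-beta in the matrix, had -0.95 and -0.69. Epithelial and junction genes passed above 0 in 6 of 26 and below in 2, with a median of 0.14 (0.01 on the TPM scale). CDH1 and CLDN4 were above 0, together with the desmosomal gene DSP (0.93), and CLDN1 (-1.04) and OCLN (-0.91) were below.

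Of the 17 proximal tubule genes that were expressed, 2 passed above 0 and 7 below, with a median of -0.20 that was -0.15 within set A, -0.58 within set B and -0.37 when the set was a term. MME, the brush border protease neprilysin, had 5.45, 4.55 and 5.36 CPM in shVHL61-KIM1A1 cells, 7.33, 9.73 and 9.46 in shVHL61 cells, 21.6, 19.8 and 24.04 in shKIM1-A1 cells, and 12.2, 15.3 and 11.9 in Luc976 cells. The shKIM1-A1 samples were highest and the double lowest, with an interaction of -1.51 (SE 0.19, adjusted p = 3.98e-05). GATM (creatine synthesis) and MIOX (inositol oxidation) had interactions of -1.27 and -1.22. ANPEP, the brush border aminopeptidase N, held 18 counts in the double, 80 in shVHL61, 66 in shKIM1-A1 and 24 in Luc976, with an interaction of -3.32 (95% interval -4.32 to -2.32). The tubular injury and repair list passed above 0 in 9 of 23 and below in 6, with a median of 0.22 (0.06 on the TPM scale and 0.09 with the length trend removed, with 8 above 0 and 7 below in each), MMP7, LCN2 and CD24 on one side and MMP9, SOX9 and PLAU on the other. Dead-cell uptake and lysosome genes passed above 0 in 9 of 32 and below in 3, with a median of 0.13 (-0.03 on the TPM scale), among them MAP1LC3C, CTSB (0.59) and NPC2 (0.40). NRF2 antioxidant genes passed above 0 in 5 of 23 and below in none (21.7%, beside 19.8% of all genes), with a median of 0.10. On the TPM scale 2 passed above 0 and 5 below, with a median of -0.05. With the library set as a term 7 passed above 0 and 5 below. Those above 0 in the main fit included FTH1 (ferritin heavy chain, 0.66), AKR1C3 (0.52) and the transporters ABCC2 (1.01) and ABCC3 (0.34). ABCC2 and ABCC3 lost their calls on the TPM scale, and ABCC3 also when some single samples were left out.

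Markers of other cells were few. Of fibroblast markers 6 of 10 were tested and 1 passed in each direction (COL1A1 and DCN), with a median interaction of 0.72 (0.20 within set B and 0.14 on the TPM scale) and a summed level of 174 to 186 CPM in the double, 139 to 163 in shVHL61, 135 to 164 in shKIM1-A1 and 145 to 156 in Luc976. Of endothelial markers 3 of 9 were tested, with a median of -0.71 (-0.26 within set B and -0.30 on the TPM scale), KDR, EMCN and CLDN5 had no count, and the summed level was 4.56 to 5.23 CPM in the double, 2.81 to 3.45 in shVHL61, 1.84 to 3.20 in shKIM1-A1 and 1.78 to 2.84 in Luc976. CDH5, VE-cadherin, was the endothelial marker that passed. CDH5 had 2.58, 2.77 and 2.18 CPM in shVHL61-KIM1A1 cells, 0.486, 0.501 and 1.19 in shVHL61 cells, 0.0526, 0.369 and 0.197 in shKIM1-A1 cells, and 0.631, 0.962 and 0.713 in Luc976 cells. Its interaction of 3.66 rests on 131 counts in the double, 43 in shVHL61, 12 in shKIM1-A1 and 43 in Luc976. Of immune markers 4 of 12 were tested, CD3E, MS4A1 and FCGR3A had no count, and CSF1R (-1.96) and CD14 (0.78) passed, with a list median of 0.11 that was -0.10 with the library set as a term and -0.03 on the TPM scale, and a summed level of 155 to 171 CPM in the double, 138 to 148 in shVHL61, 125 to 141 in shKIM1-A1 and 120.2 to 130.5 in Luc976. CD14 lost its call within set A (adjusted p = 0.0697) and within set B (adjusted p = 0.0578, edgeR in both), where the list median was -0.10 and -0.11. Of markers of other nephron segments 2 of 19 were tested and SCNN1A, a subunit of the epithelial sodium channel, passed (0.45), with a median of 0.23 over both. The summed level of that list was 486 to 524 CPM in the double, 375 to 393 in shVHL61, 362 to 411 in shKIM1-A1 and 379 to 413 in Luc976. The part of other cells in the interaction was not tested, and in bulk RNA fewer cells of a type and less RNA per cell cannot be told apart.

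Gene length moved with the interaction. Genes that passed above 0 had a median effective length of 2196 bases, those below 4460, and all genes 2837, and the Spearman correlation across genes was -0.330. With each sample's trend on length removed, 2451 genes passed, 2053 of the 2811 kept their call, 8 changed sign, and 501 of the 532 genes that departed by at least 2-fold kept theirs. Transcript GC content, by which the library sets differ, correlated with the interaction at 0.178. The sets are not balanced over the groups, with shVHL61-KIM1A1 and Luc976 mostly in set A and the single hairpins mostly in set B. With the set as a term 4764 genes passed, 2787 of the 2811 among them and none with the other sign. Within set A shVHL61 and shKIM1-A1 have a single sample each, and within set B shVHL61-KIM1A1 and Luc976 do. Spread within a set then rests on the other groups, so no count of passing genes is given there. In fits within each set all 2811 genes kept their sign, although both sets had a part in choosing them. Over all genes the interactions within the sets had a Pearson r of 0.404. Additivity on the linear CPM scale left the sign of 1456 of the 1457 genes above 0 and of 1345 of the 1354 below.

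**Figure D5:**
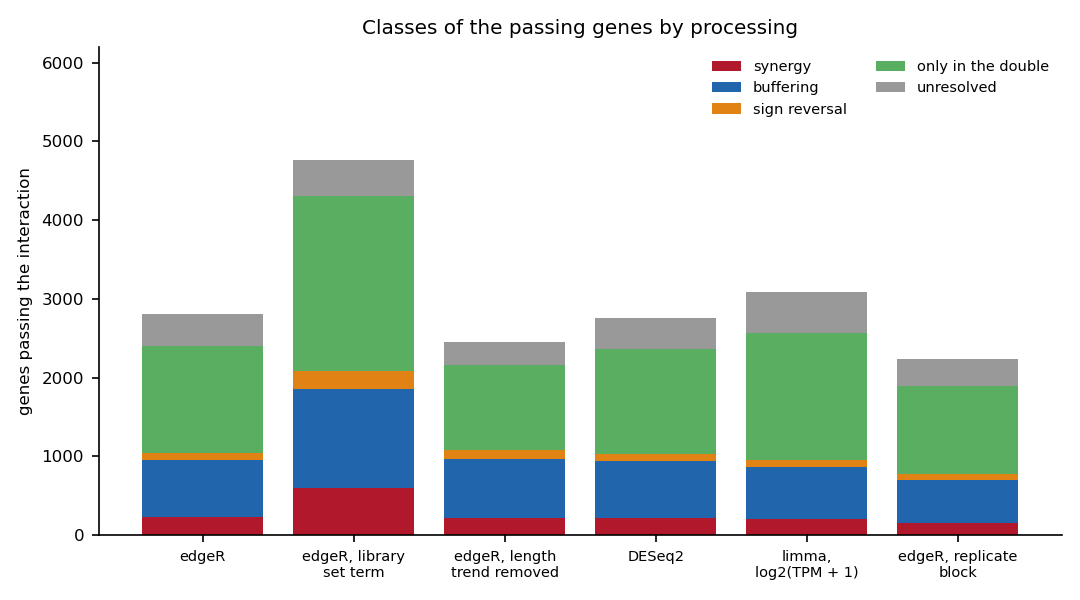
Number of genes that pass the interaction, stacked by class, under 6 ways of processing (horizontal axis). Each bar starts at 0. The total is 2811 with edgeR, 4764 with the library set as a term, 2451 with the length trend removed, 2754 with DESeq2, 3090 with limma on log2(TPM + 1) and 2241 with the replicate block.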

How the data were processed

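RNA sequencing of 12 HK-2 samples was analysed from a single table. The expected counts, TPM and FPKM of each gene were made and deposited by the authors, per the file headers. Bowtie 0.12.2 is named with mm8 and mm9, both mouse builds, per the submitters' processing notes, with no role for any. The quantifier and human build were not given in the sources used. Another 6 columns hold the authors' own comparisons and were not used.

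Expected counts were rounded to whole numbers, because about 10% of the values were not whole, filtered with filterByExpr (minimum count 10) and scaled by TMM. They were fitted with edgeR 4.0.16 in R 4.3.3 (glmQLFit, glmQLFTest), with 4 group means, 8 residual degrees of freedom and no covariate. All p-values are two-sided and adjusted by Benjamini-Hochberg over 14230 genes. As replicate samples may not be separate cultures, p-values may reflect technical spread alone. No replicate pair agreed within sampling noise, and in every group the pair from the same library set differed least. That check cannot tell separate cultures from repeat libraries of the same culture. Effective lengths came from the ratio of expected count to FPKM. TPM entered only limma 3.58.1 on log2(TPM + 1). DESeq2 1.42.0, other scaling, no filter, the replicate block, removal of length and GC trends, the library set and leaving out each sample were alternatives, and those with the library set or GC content were chosen after seeing the data. The test was checked on simulated data that held no slopes on length or GC content and no library sets, so that check does not cover error rates under them.

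Members and lists were chosen with earlier results of these data known, and some list members because of them. Genes were named as the 6 largest interactions of each sign, the 4 largest of each sign in each class (average log2 CPM of at least 2), up to 4 members of each list by smallest p, and the 3 largest additive sums of each sign. Levels are CPM on TMM-scaled library sizes. A few genes that this rule names are not reported here.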

Additional observations from a re-analysis of the deposited data

Results flagged for a closer look

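The effect of the KIM-1 hairpin differed between cells with and without shVHL61, by the test of that difference, for 2811 genes, and in 338 of them it passed with opposite signs. HAVCR1 itself did not pass in the main fit (0.31). It differed only in some settings with the library set or GC content, which were chosen after seeing the data. With a term for the library set its interaction was 0.459. The largest differences upward were those of INHBB (4.38), CA9 (3.10), IFITM2 (2.54), CDA (2.43), MAP1LC3C (2.36) and BGN (2.33). The largest downward were those of SHC3 (-3.91), GPC4 (-3.03), FBN1 (-2.80), FUT9 (-2.56), KIF26B (-2.30) and MCOLN3 (-2.29). All are log2 interactions, and the 12 genes are the largest among those that average at least 2 on the log2 CPM scale. Groups of 3 samples are too small for a check of single outlying samples.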

How the results depend on the processing

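Most results kept their direction. Of the values of named genes under alternatives, 2531 kept their side of the threshold, 67 lost it (in 4 or more leave-outs BBC3, ABCC3, BCL2L11 and MT1L), 1 gained it (OSM, whose fit rests on 5 counts) and no value that passed changed sign. Counts moved mainly with the GC-related settings. With the library set as a term 4764 genes passed, 2408 above 0 and 2356 below, with 600 in synergy, 1252 in buffering, 234 in sign reversal and 2227 passing only in the double. The KIM-1 effect was then opposite in 674, stronger in 689 and weaker in 1284, and the interaction of HAVCR1 was 0.459. With the GC trend removed 4860 passed, 2423 above 0 and 2437 below, with 536 in synergy, 1314 in buffering, 233 in sign reversal and 2287 only in the double. The KIM-1 effect was then opposite in 682, stronger in 699, weaker in 1324 and passing only with shVHL61 in 2042, and HAVCR1 stood at 0.298. With length and GC trends removed together 2111 passed below 0, with 469 in synergy, 1302 in buffering and 214 in sign reversal, and the KIM-1 effect was opposite in 605, stronger in 624 and weaker in 1259. HAVCR1 was at 0.334 within set A and 0.571 within set B. An adjusted p below 0.01 left 1382 genes, 712 above 0 and 670 below. limma on log2(TPM + 1) gave 757 above 0, 2333 below and 198 of at least 2-fold. The cause of these shifts was not tested.

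Leaving out each sample in turn gave 2019 genes (without shVHL61-KIM1A1 replicate 3) to 3463 (without shKIM1-A1 replicate 2), 1040 to 1775 above 0, 979 to 1688 below and 452 to 569 of at least 2-fold. Synergy ranged over 109 to 257, buffering 454 to 1161 and sign reversal 51 to 143. Without Luc976 replicate 3 there were 112 in synergy, 454 in buffering and 51 in sign reversal, without Luc976 replicate 1 109 in synergy and 56 in sign reversal, and without Luc976 replicate 2 65 in sign reversal. Synergy held 148 genes without shVHL61 replicate 3 and 151 without shKIM1-A1 replicate 1, and buffering 1161 without shKIM1-A1 replicate 2. Other classes ranged over 941 to 1497 for genes passing only in the double and 264 to 507 unresolved. The KIM-1 effect was opposite in 242 to 461, stronger in 164 (without shKIM1-A1 replicate 1 or Luc976 replicate 3) to 288, weaker in 533 to 1077 and passing only with shVHL61 in 894 (without shVHL61-KIM1A1 replicate 3) to 1535. List members passing numbered 175 to 238, HAVCR1 stood at 0.167 to 0.410 and VHL at -0.067 to 0.023.

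Deviations from the group means correlated at -0.308 to 0.241 between samples of the same replicate number. No pairing by number was seen, but 3 samples per group are too few to exclude it. With the replicate block 2241 genes passed, 2226 of them among the 2811. With the length trend removed RBX1, CREBBP, NPC2, MT1L and BBC3 no longer passed, and on log2(TPM + 1) HSPA5, ATP5A1, ABCC2, ABCC3, BID, BCL2L11 and BBC3 did not. At this depth genes that did not reach about 10 counts in at least 3 samples were left out. A gene could thus be kept while nearly empty in some groups. Interactions of genes with near-empty groups (OSM, DCN, ANPEP, CCL2) are poorly bounded. Medians of lists moved by more than their replicate spread in 152 comparisons with the value given and by less in 400.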
